A study of Mus musculus with 6 samples.

Results

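The genes described here are the angiopoietins, their Tie receptors, the phosphatase of the Tie complex and the angiopoietin-like ligands, measured in RET mouse melanoma cells after silencing of Angpt2. Of 9 listed symbols, 7 had a row of the array table annotated to that gene alone: Angpt2, Angpt1, Angpt4, Tek, Tie1, Ptprb and Angptl4, out of 22180 genes in all. A row is a transcript cluster, a set of probes along 1 transcribed region. For a gene with several clusters, the brightest by its 6-array mean stands for the gene. Angptl2 was not analysed here, nor was Angptl6, whose cluster is annotated to Shfl as well.

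RET cells are a mouse melanoma line of C57BL\6 background. The Angpt2 shRNA-1 group (3 cultures) was transduced with 1 short hairpin RNA (shRNA) against Angpt2, and the control shRNA group (3 cultures) with a non-targeting hairpin. The titles of the control cultures also carry the word GFP, whose meaning the labels do not give. Both groups were grown for 24 h in the same high-glucose medium with serum, and each culture was hybridised to its own whole-transcript array. The labels call the cultures biological replicates, but the promoter of the hairpins and whether the transduced cells were clones or pools are not given in the sources used here. With 1 targeting hairpin and no rescue, an effect of less Angpt2 cannot be told apart from an effect of that hairpin or from a difference between the transduced cell stocks.

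Angiopoietins are secreted ligands of the receptor tyrosine kinase Tek (Tie2), which is found chiefly on endothelial cells together with its relative Tie1. Angpt1, made by cells around vessels, activates Tek and keeps vessels quiet and tight. Angpt2 is best known from endothelial cells, where it is stored and released on activation, and it antagonises Angpt1 or acts as a weak agonist depending on the setting. Angpt4 is a further Tek ligand. Ptprb (VE-PTP) is a receptor phosphatase that removes phosphate from Tek. Most angiopoietin-like proteins share the domain layout of angiopoietins, but they do not bind Tek, and Angptl4 is known for inhibiting lipoprotein lipase.

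Values are normalized intensities on a linear scale, and array medians over all clusters lay between 74.5 and 76.2. The table has no detection calls. As a description of what a gene silent in most cells gives, 1394 olfactory and vomeronasal receptor genes were taken. Their median intensity was 49.0 and their 95th percentile 72.3, and 61.9% of all genes lay above that percentile. Probes of different genes differ in brightness, so the members are not ranked against each other by level. Control replicate 1 stood apart from the rest. It was the array farthest from the 6-array median for 27.5% of genes, against 11.4% to 14.4% for the Angpt2 shRNA-1 arrays and 21.5% and 13.8% for control replicates 2 and 3. All 10 melanocyte lineage markers, such as Tyrp1, a pigment enzyme with a mean intensity of 9386, lay above the receptor genes' 95th percentile.

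Angpt2 was the member with clear signal, and it was lower on every array of silenced cells than on any control array, while staying above the level of nearly all receptor genes. Its intensity was 100.2, 122 and 122 in Angpt2 shRNA-1 replicates 1, 2 and 3, against 195, 372 and 326 in control shRNA replicates 1, 2 and 3. The groups did not overlap, and the lowest control was 1.59-fold above the highest silenced culture. Across all genes, every Angpt2 shRNA-1 array lay below every control array for 5.48% of genes, so the separation alone is not particular to Angpt2. The mean intensity was 115 ± 12.7 in Angpt2 shRNA-1 cells and 298 ± 91.8 in control cells (SD, n = 3 each). The log2 fold change was -1.33 (SE 0.21, 95% interval -1.81 to -0.85), that is 2.51-fold lower signal, with an interval from 1.80-fold to 3.50-fold lower. In this fit it was the largest absolute log2 fold change of 22180 genes and number 3 by p-value.

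**Figure D1:**
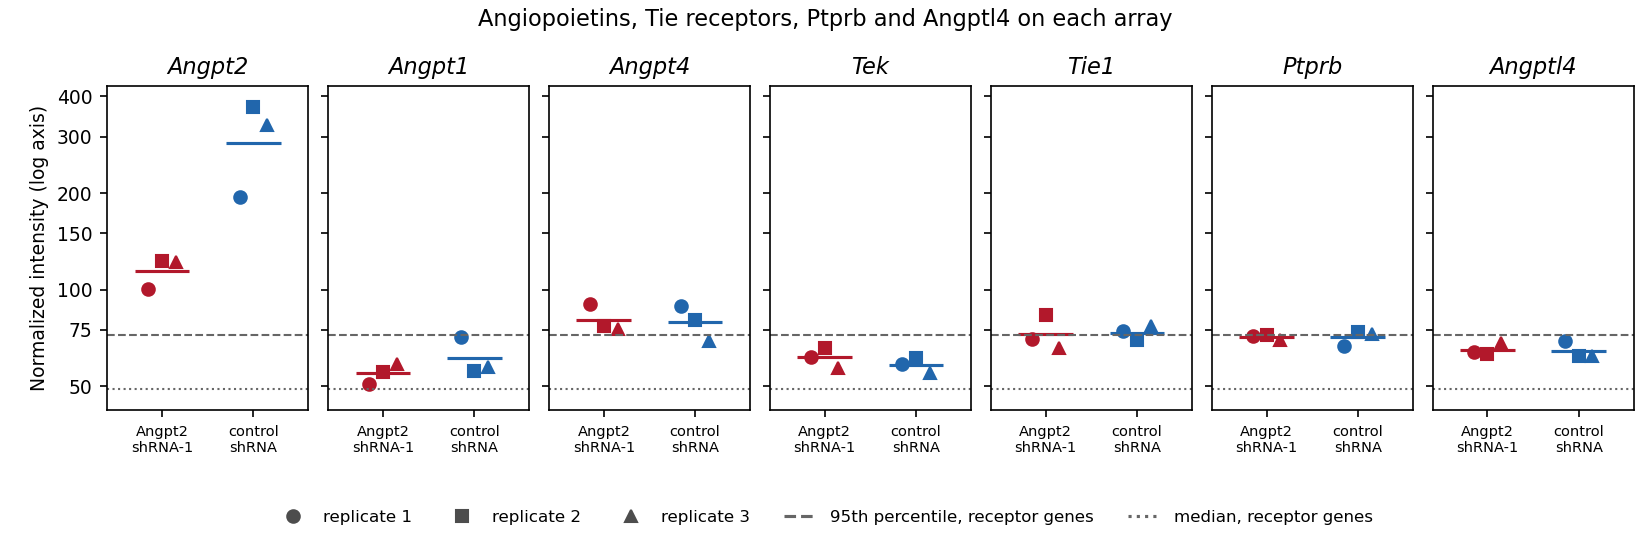
Normalized intensity (log axis) of the 7 genes on each array, with Angpt2 shRNA-1 cultures at the left of each panel, control shRNA cultures at the right, symbols for replicate numbers, bars for geometric means of 3 arrays, and lines for the median (49.0) and 95th percentile (72.3) of the receptor genes. Angpt2 alone separates the groups, at 100.2 to 122 against 195 to 372.

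The Angpt2 difference did not pass the test over all genes in the fit without a block, and it passed when arrays were compared within replicate numbers. The limma adjusted p was 1.00 without the block and 0.046 with the replicate number as a block. With the block 0.00451% of genes were called lower, which was Angpt2 alone. Another 0.00451% were called higher, which was 1 other gene at the same limma adjusted p. Without the block 0% of genes were called in either direction by limma at an adjusted p of 0.05, against 835 genes (3.76%) at an unadjusted p under 0.05, of which 338 (1.52%) were higher and 497 (2.24%) lower in Angpt2 shRNA-1 cells. Of the 7 members, only Angpt2 had an unadjusted p under 0.05 (limma unadjusted p = 1.4e-04). The exact two-sided permutation p for Angpt2 was 0.1, which is the smallest that 3 against 3 arrays can give. Within replicate numbers 1, 2 and 3 the log2 difference was -0.96, -1.60 and -1.42. Leaving out control replicate 1, the control with the lowest Angpt2, gave a log2 fold change of -1.61 with limma adjusted p = 0.0116. Leaving out the replicate 1 arrays of both groups, chosen after seeing the data, gave -1.51 with limma adjusted p = 0.0404. Angpt2 did not pass when any other single array was left out. It was -1.14 without control replicate 2 (limma adjusted p = 0.730) and -1.24 without control replicate 3 (limma adjusted p = 0.796). Nor did Angpt2 pass without the replicate 2 or the replicate 3 arrays of both groups.

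Angpt2 also varied between control cultures. The SD of its log2 intensity was 0.17 in Angpt2 shRNA-1 cells and 0.49 in control cells. The control SD exceeded that of 98.8% of genes (median over genes 0.13), and the SD in silenced cells that of 81.9% (median 0.09). The highest culture exceeded the lowest 1.22-fold in Angpt2 shRNA-1 cells and 1.91-fold in control cells. The culture numbered 1 was the lowest in both groups, by 0.19 below the mean of Angpt2 shRNA-1 cells and 0.56 below that of control cells on the log2 scale.

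Relative to the other genes of the same array, the place of Angpt2 moved to the middle of the range. It lay above 54.4%, 59.3% and 58.8% of all genes in Angpt2 shRNA-1 replicates 1, 2 and 3, against 67.1%, 79.6% and 77.1% in control replicates 1, 2 and 3. This within-array rank does not depend on a scaling between arrays. Among the receptor genes, Angpt2 still lay above 98.9%, 99.4% and 99.3% in the silenced cultures, against 99.9% in each control culture. Silenced cells thus kept an Angpt2 signal brighter than nearly all of these genes.

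The size of the fold depends on the signal that the array gives without transcript. The median receptor gene had an intensity of 48.0 to 50.4 on the 6 arrays. Subtracting this median left an Angpt2 intensity of 52.1, 73.7 and 72.9 in Angpt2 shRNA-1 replicates 1, 2 and 3, against 145, 322 and 277 in control replicates 1, 2 and 3. On this scale, chosen after seeing the data, the log2 fold change was -1.84, or 3.59-fold lower, with limma adjusted p = 0.696. Subtracting each array's 5th percentile instead gave -1.75, or 3.37-fold lower, with limma adjusted p = 0.993. In these bulk RNA samples, fewer cells that hold Angpt2 transcript and less transcript per cell cannot be told apart.

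**Figure D2:**
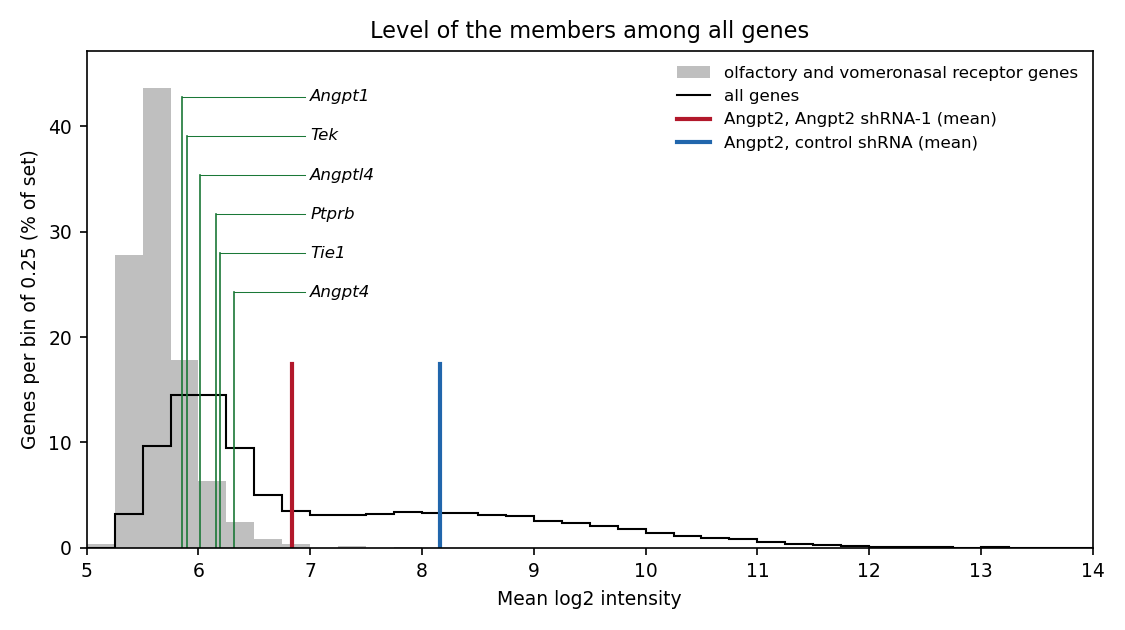
Share of genes (percent of each set) by mean log2 intensity in bins of 0.25, for all 22180 genes (black line) and the 1394 receptor genes (grey), with the group means of Angpt2 (thick lines, 6.84 in Angpt2 shRNA-1 and 8.17 in control shRNA cells) and the 6-array means of the other 6 members (green). Both Angpt2 lines lie above the receptor genes' 95th percentile. Of the other 6 members only Tie1 and Angpt4 do so, with means just above it.

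In the RefSeq annotation (GRCm38.p6) Angpt2 lies within the span of Mcph1, a gene of chromosome condensation and the DNA damage response, and near Agpat5, which encodes an acyltransferase of phospholipid synthesis. Mcph1 had 196, 216 and 199 in Angpt2 shRNA-1 replicates 1, 2 and 3, against 169, 193 and 209 in control replicates 1, 2 and 3. Its groups overlapped (log2 fold change 0.10, 95% interval -0.12 to 0.33, limma adjusted p = 1.00), and leaving out control replicate 1 gave 0.02 for Mcph1, and leaving out control replicate 3 gave 0.17. Agpat5 had 529, 429 and 434 in Angpt2 shRNA-1 cells, against 448, 521 and 410 in control cells, and again the groups overlapped (log2 fold change 0.01, 95% interval -0.26 to 0.28, limma adjusted p = 1.00). The sign of Agpat5 turned without Angpt2 shRNA-1 replicate 1 or control replicate 1 or 3. The interval of neither gene reached that of Angpt2.

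The other 6 members had dim signals in both groups, and none passed the test. For Angpt1, Tek, Ptprb and Angptl4 the mean level lay below the receptor genes' 95th percentile, and for Tie1 and Angpt4 just above it. Their log2 fold changes ran from -0.16 to 0.08, and their 95% intervals together spanned -0.41 to 0.29, so that none of the 6 intervals reached the -0.85 that bounds Angpt2. An interval for such a dim signal limits the change of the signal, and it says little about transcript that the array could not detect.

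Angpt1, the activating Tek ligand, was represented by 2 clusters that went in opposite directions. The brighter had 50.9, 55.4 and 58.6 in Angpt2 shRNA-1 replicates 1, 2 and 3, against 71.1, 55.9 and 57.5 in control replicates 1, 2 and 3. Only control replicate 1 was apart, and the groups overlapped (log2 fold change -0.16, SE 0.11, limma adjusted p = 1.00). Without that array the log2 fold change was -0.05, and without Angpt2 shRNA-1 replicate 1 it was -0.10. The dimmer cluster had 57.6, 58.2 and 57.1 in Angpt2 shRNA-1 cells, against 53.1, 56.0 and 54.4 in control cells. There the silenced cultures were all higher, by 0.08 on the log2 scale, a pattern that 3.53% of genes showed. The 2 clusters of Angpt1 therefore give no direction for it.

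Angpt4, the remaining Tek ligand, had 90.3, 76.8 and 75.6 in Angpt2 shRNA-1 replicates 1, 2 and 3, against 88.6, 80.3 and 69.3 in control replicates 1, 2 and 3. The groups overlapped throughout (log2 fold change 0.03, SE 0.12, limma adjusted p = 1.00), and the sign turned without Angpt2 shRNA-1 replicate 1 or control replicate 3. Its mean lay above that of 97.1% of receptor genes, with 40 of them at or above it. Replicate 1 was the brightest in both groups.

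Tek, the angiopoietin receptor, had 61.7, 66.0 and 56.9 in Angpt2 shRNA-1 replicates 1, 2 and 3, against 58.7, 61.0 and 54.9 in control replicates 1, 2 and 3. The silenced culture was the higher one in 3 of 3 replicate numbers, by 0.07, 0.11 and 0.05 on the log2 scale, while the groups as a whole overlapped. The log2 fold change was 0.08 (SE 0.09, 95% interval -0.13 to 0.28), and it passed neither without the block (limma adjusted p = 1.00) nor with it (limma adjusted p = 0.997). For Tek, leaving out 1 silenced culture gave 0.03 (replicate 2) or 0.13 (replicate 3), leaving out control replicate 3 gave 0.04, and subtracting the 5th percentile of each array gave 0.38. Its mean lay above 84.1% of receptor genes, with 222 of them at or above it, so that the presence of Tek transcript in these cells cannot be read from the arrays.

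Tie1, the co-receptor without a firmly established angiopoietin of its own, had 70.0, 83.1 and 65.7 in Angpt2 shRNA-1 replicates 1, 2 and 3, against 74.2, 69.5 and 76.8 in control replicates 1, 2 and 3. Silenced cultures held both the highest and the lowest value. The log2 fold change was -0.02 (SE 0.10, limma adjusted p = 1.00), and its sign turned when Angpt2 shRNA-1 replicate 1 or 3 or control replicate 3 was left out.

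Ptprb had 71.9, 72.3 and 69.8 in Angpt2 shRNA-1 replicates 1, 2 and 3, against 66.6, 73.9 and 72.7 in control replicates 1, 2 and 3. All silenced values lay inside the range of the controls. The log2 fold change was 0.01 (SE 0.08, 95% interval -0.18 to 0.19, limma adjusted p = 1.00), and its sign turned without control replicate 1 or Angpt2 shRNA-1 replicate 2.

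Angptl4, the angiopoietin-like lipase inhibitor and a known target of PPAR factors and of hypoxia, had 63.8, 63.0 and 68.4 in Angpt2 shRNA-1 replicates 1, 2 and 3, against 69.1, 62.0 and 62.0 in control replicates 1, 2 and 3. The groups again overlapped, with 1 brighter culture in each. The log2 fold change was 0.02 (SE 0.09, limma adjusted p = 1.00), and its sign turned without Angpt2 shRNA-1 replicate 3 or control replicate 2 or 3. Its mean lay above 90.0% of receptor genes.

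**Figure D3:**
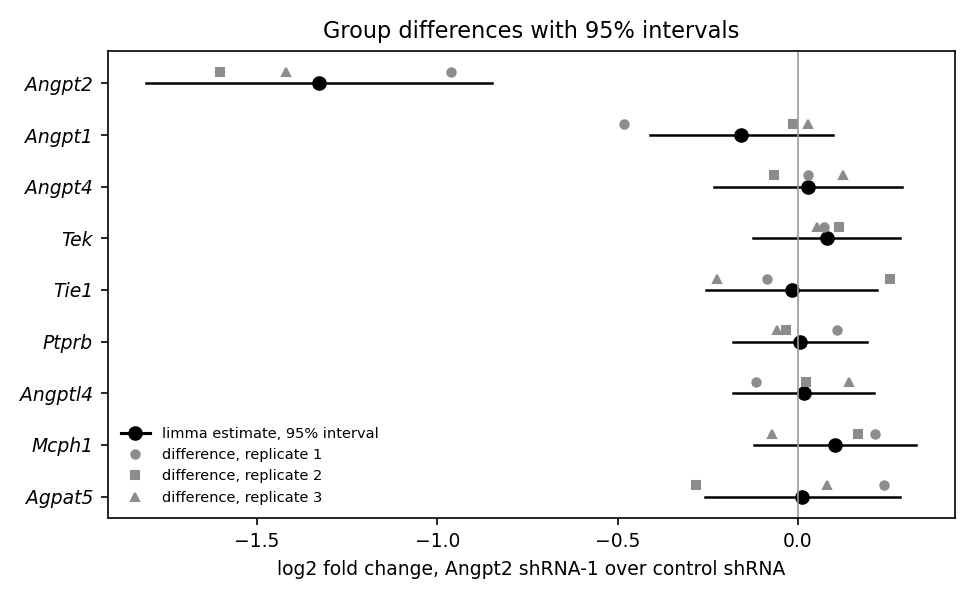
Log2 fold change of Angpt2 shRNA-1 over control shRNA for the 7 members and for Mcph1 and Agpat5, with 95% limma intervals (black, 3 arrays a group) and the difference within each replicate number (grey). The interval of Angpt2 runs from -1.81 to -0.85, while every other interval includes 0.

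Further genes that act with these ligands and receptors were counted from lists, beside the 22180 genes with a median log2 fold change of -0.01. Of all genes, 10032 had a positive and 12148 a negative log2 fold change. In none of these lists was a member called by limma, with 0% of all genes called and 3.76% at an unadjusted p under 0.05. Among adaptors and effectors of Tie signalling, 14 of 15 listed genes were measured. The receptor genes' 95th percentile was exceeded by 12 of the 14, against 61.9% of all genes. Of these 14, 7 had positive and 7 negative log2 fold changes (median -0.03), and 0 reached an unadjusted p of 0.05. Nos3, the endothelial nitric oxide synthase, had 115, 107 and 121 in Angpt2 shRNA-1 replicates 1, 2 and 3, against 107, 106 and 90.2 in control replicates 1, 2 and 3 (log2 fold change 0.17, SE 0.10, limma adjusted p = 1.00). Pik3r1, the regulatory subunit of PI3 kinase through which Tek reaches Akt, had 587, 556 and 558 in silenced cells, against 736, 648 and 596 in control cells (log2 fold change -0.21, SE 0.10, limma adjusted p = 1.00). For Pik3r1 the groups did not overlap, as for 5.48% of genes in that direction, and for Nos3 they did. Without control replicate 1 Pik3r1 was at -0.13, and without control replicate 3 Nos3 was at 0.09.

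Angpt2 can also bind integrins, and this tumour line had signal for all 5 listed subunits, Itga5, Itgb1, Itgav, Itgb3 and Itgb5. Each lay above the receptor genes' 95th percentile, as did 61.9% of all genes. Itgb1, the shared beta subunit, had a mean of 1762. The list's log2 fold changes ran from -0.09 for Itgav to 0.02 for Itgb3 (median -0.04), and 0 of 5 reached an unadjusted p of 0.05. Itgav had 1119, 1201 and 1175 in Angpt2 shRNA-1 replicates 1, 2 and 3, against 1134, 1376 and 1222 in control replicates 1, 2 and 3, and its value was -0.15 without control replicate 1 and -0.01 without control replicate 2. Itgb3 had 405, 348 and 541 in silenced cells, against 396, 426 and 434 in control cells, and its sign turned without Angpt2 shRNA-1 replicate 3 (-0.16) or control replicate 1 (-0.02). The groups of both genes overlapped.

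Among 3 other angiopoietin-like genes, none was called. Angptl7 had 90.1, 86.3 and 87.9 in Angpt2 shRNA-1 replicates 1, 2 and 3, against 88.7, 77.1 and 96.5 in control replicates 1, 2 and 3 (log2 fold change 0.02, limma adjusted p = 1.00). Without control replicate 2 the value of Angptl7 was -0.07. Angptl1 had 47.0, 51.8 and 52.3 in silenced cells, against 69.5, 47.3 and 44.3 in control cells (log2 fold change -0.06, limma adjusted p = 1.00). As for the brighter Angpt1 cluster, control replicate 1 alone was high for Angptl1, and without it the value was 0.14. The third, Angptl8, a regulator of lipoprotein lipase, had a log2 fold change of -0.01.

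Around lipoprotein lipase, the enzyme that Angptl4 inhibits, 8 of 9 genes were measured, with 5 positive and 3 negative log2 fold changes (median 0.05). Of these, 2 reached an unadjusted p of 0.05, 1 in each direction, and neither was called. Gpihbp1, which holds the lipase on capillary walls, had 102, 92.8 and 109 in Angpt2 shRNA-1 replicates 1, 2 and 3, against 90.9, 83.2 and 67.0 in control replicates 1, 2 and 3. Its groups did not overlap (log2 fold change 0.34, SE 0.12, limma adjusted p = 1.00), as for 3.53% of genes in that direction. The value of Gpihbp1 was 0.21 without control replicate 3 and 0.72 with the 5th percentile subtracted. Ppara, a nuclear receptor that switches on Angptl4 and fatty acid oxidation, had 72.4, 72.8 and 67.8 in silenced cells, against 84.4, 89.4 and 91.5 in control cells. These groups did not overlap either (log2 fold change -0.32, SE 0.08, limma adjusted p = 1.00), as for 5.48% of genes in that direction. The silenced values of Ppara lay around the receptor genes' 95th percentile.

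Transcription factors known to act on Angpt2 in endothelium were all measured above the receptor genes' 95th percentile, 8 of 8, against 61.9% of all genes. Of these 8, 2 had positive and 6 negative log2 fold changes (median -0.09), and 0 reached an unadjusted p of 0.05. Ets1, an ETS family activator, had a mean of 1316. Gata2 had 106, 93.3 and 85.5 in Angpt2 shRNA-1 replicates 1, 2 and 3, against 101, 142 and 104 in control replicates 1, 2 and 3, where control replicate 2 alone was high (log2 fold change -0.27, SE 0.14, limma adjusted p = 1.00, and -0.12 without that array). Epas1, which encodes the hypoxia factor HIF-2 alpha, had 160, 148 and 167 in silenced cells, against 120, 169 and 159 in control cells (log2 fold change 0.10, SE 0.13, limma adjusted p = 1.00). Without control replicate 1 the value of Epas1 was -0.05.

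**Figure D4:**
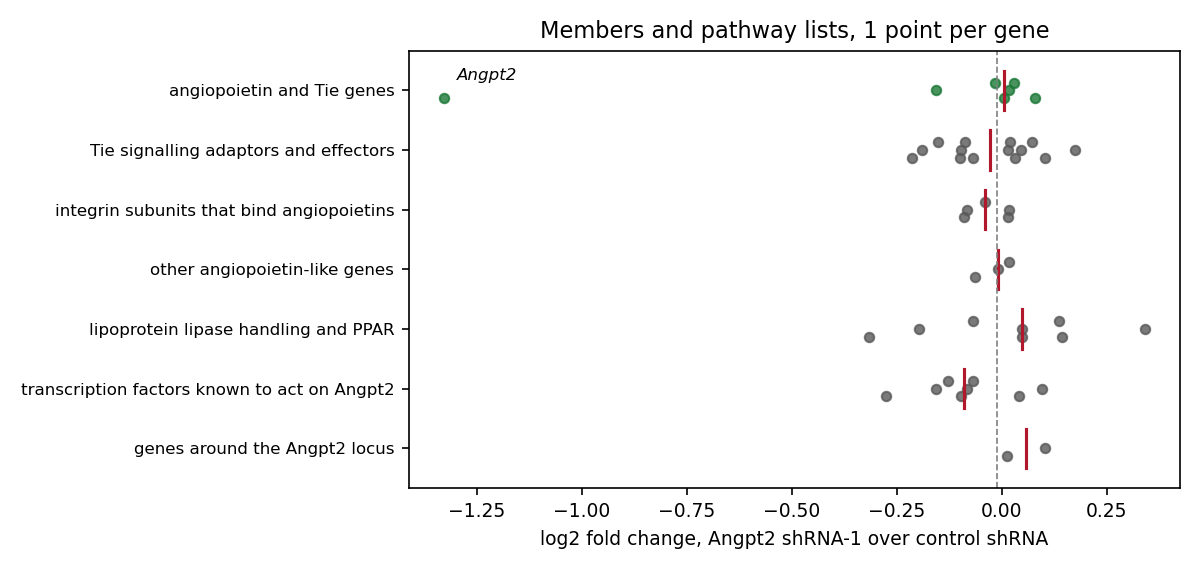
Log2 fold change of Angpt2 shRNA-1 over control shRNA, 1 point a gene, for the 7 members (green) and the pathway lists (grey), with list medians in red and the median of all genes (-0.01) as the dashed line. Apart from Angpt2 at -1.33, the points lie between -0.32 and 0.34.

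Markers of the cell types that normally carry these genes, and of the melanocyte lineage, were described by sign, by level and by their summed intensity, and no marker was called by limma. The sums had no background subtracted. The median receptor gene alone gave 48.0 to 50.4 on an array, so sums of dim markers hold much signal of that kind. The receptor genes' 95th percentile was exceeded by 61.9% of all genes and by 7 of 12 endothelial markers. Of these 12, 6 had positive and 6 negative log2 fold changes (median 0.00). Their sum was 2952 to 3424 in Angpt2 shRNA-1 cells against 2972 to 3102 in control cells. Most of that sum came from Eng, a TGF-beta co-receptor with a mean of 2219 that is not confined to endothelium. Among pericyte markers 6 of 7 lay above that percentile, and 7 of 7 had positive log2 fold changes (median 0.10), against 10032 of all 22180 genes. Apart from Pdgfrb, no pericyte marker exceeded 102.9 on any array. Pericyte marker sums were 736 to 770 in Angpt2 shRNA-1 cells against 678 to 745 in control cells. Without single arrays 5 to 7 of the 7 stayed positive. Pdgfrb, the PDGF receptor of pericytes, had 270.4, 248 and 249 in Angpt2 shRNA-1 replicates 1, 2 and 3, against 215, 225 and 246 in control replicates 1, 2 and 3. Its groups did not overlap (log2 fold change 0.16, SE 0.09, limma adjusted p = 1.00), as for 3.53% of genes in that direction.

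Melanocyte lineage markers leaned the other way, with 9 of 10 negative (median log2 fold change -0.08), against 12148 of all 22180 genes. Their sums were 41432 to 44725 in Angpt2 shRNA-1 cells against 42378 to 46924 in control cells. Without control replicate 1, 5 of 10 markers were negative (median 0.01). Mitf, the master regulator of the lineage, was the 1 marker of the 10 at an unadjusted p under 0.05. It had 2414, 2537 and 2502 in Angpt2 shRNA-1 replicates 1, 2 and 3, against 2908, 2969.8 and 2681 in control replicates 1, 2 and 3. Its groups did not overlap (log2 fold change -0.20, SE 0.08, limma adjusted p = 1.00), as for 5.48% of genes in that direction, and without control replicate 1 its value was -0.18. For macrophages 3 of 8 markers lay above the receptor genes' 95th percentile, against 61.9% of all genes. Of these 8, 5 were positive and 3 negative (median 0.03). Macrophage marker sums were 625 to 638 in silenced cells against 614 to 681 in control cells, with the lysosomal protein gene Cd68 at a mean of 146. Fibroblast markers gave 4 of 6 above that percentile, 3 positive and 3 negative (median 0.00). Fibroblast marker sums were 465 to 496 in silenced cells against 468 to 516 in control cells, with Col1a2 at a mean of 115. The part of these cell types in the Angpt2 difference was not tested.

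The genes whose pattern over the 6 arrays was nearest to that of Angpt2 differed less between the groups than Angpt2 did. Nearness was the root mean square difference between log2 values centred on each gene's mean, among 13734 genes above the receptor genes' 95th percentile. This measure counts size as well as shape, so a gene with the same shape and a smaller change lies apart from Angpt2. The 5 nearest were Apoe (0.44), which encodes an apolipoprotein, Gm19426 (0.45), the mitochondrial thioredoxin gene Txn2 (0.48), Taf13 (0.48), a subunit of the general transcription factor TFIID, and Nucb1 (0.49), a calcium-binding protein gene of the Golgi. A gene with no change at all would lie at 0.73. Apoe had 133, 152 and 159 in Angpt2 shRNA-1 replicates 1, 2 and 3, against 138, 279 and 214 in control replicates 1, 2 and 3. Control replicate 1 was the lowest control, as for Angpt2, but for Apoe it lay within the silenced range, so the groups overlapped. Txn2 had 210, 352 and 310 in silenced cells, against 441, 459 and 405 in control cells, with no low control replicate 1. The groups of Txn2 did not overlap, as for 5.48% of genes in that direction. None of the 5 was called by limma, with or without the replicate block (adjusted p = 1.00 and 0.997 for each).

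**Figure D5:**
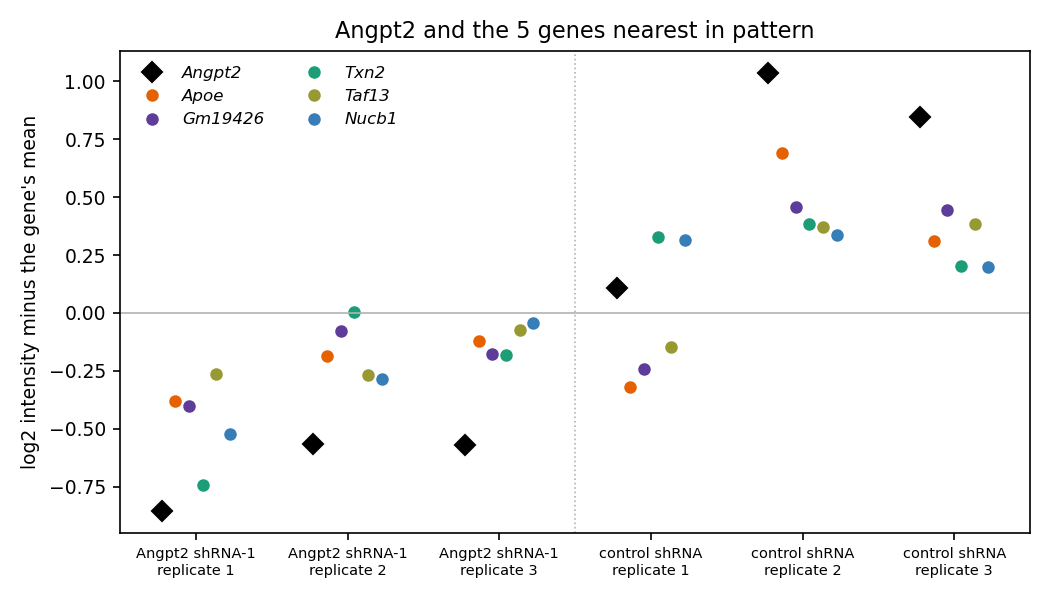
Log2 intensity minus the gene's mean over the 6 arrays, for Angpt2 (black diamonds) and the 5 genes nearest to it in pattern, with Angpt2 shRNA-1 arrays left of the dotted line and control shRNA arrays right of it. The 5 genes span less than Angpt2 in the vertical direction. Apoe, Gm19426 and Taf13, like Angpt2, have their lowest control value on replicate 1. On that array Angpt2 lies above all its silenced values, while Apoe, Gm19426 and Taf13 lie within the range of theirs.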

How the data were processed

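Per the labels' protocols, 100 ng of total RNA from each of the 6 cultures was turned into biotin-labelled cDNA for Affymetrix Mouse Gene 2.0 ST arrays. The deposited values are intensities per transcript cluster, already normalized by the authors. That the scale is linear was inferred from their range, and background correction, summarization and normalization are not given in the sources used here. Clusters with 1 gene symbol in the platform annotation and a value on all arrays gave 22180 genes. Log2 values, with no pseudocount, were fitted with limma 3.58.1 under R 4.3.3 (lmFit, then eBayes). Tests were two-sided, p-values were adjusted over all genes by Benjamini-Hochberg, and a gene was called at an adjusted p below 0.05. The fit was tested on simulated data drawn with independent errors for each array. Deviations shared by same-numbered arrays were not simulated, so that test cannot judge their effect.

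The members and lists were chosen with earlier results of these data known. Genes named are the members, Mcph1, Agpat5, the highest and lowest fold change of each pathway list, the brightest marker of each cell type and the 5 genes nearest to Angpt2. Angptl8, Itgb1, Ets1 and Mitf were added after their values were seen. Same-numbered arrays deviated together across genes (correlations 0.13, 0.21 and 0.14), so a fit blocked on the number is printed beside some results. These are Angpt2, Tek, the 5 genes nearest to Angpt2 and the number of genes called. The block changed the call of Angpt2, and not that of Tek or of the 5 genes. All other values come from the fit with no block, and the labels do not say what a number shares. The number of arrays limits the precision. Alternatives were the replicate block, other scalings, filters, cluster rules, variance models, background offsets and leaving out arrays. Pak1 and Lipc were not analysed here, and 1 listed gene is not reported here.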

Additional observations from a re-analysis of the deposited data

How the results depend on the processing

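Angpt2 was lower in Angpt2 shRNA-1 cells under 19 of 19 alternatives, with log2 fold changes from -1.84 to -1.14 and limma adjusted p from 0.0116 to 1.00. It passed under 3 of them: the replicate block (-1.33, adjusted p = 0.046), without control replicate 1 (-1.61, adjusted p = 0.0116) and without replicate 1 of both groups (-1.51, adjusted p = 0.0404), the last chosen after seeing the data. Leaving out single arrays gave -1.61 to -1.14. The number of genes called was 0 without a block, 2 with the replicate block (1 higher, 1 lower), 1 with trend and robust options and 1 with the 5th percentile subtracted. It was 0 to 2 when arrays were left out. No pathway list member was called under the 18 alternatives run for the lists, which leave out the subtraction of the receptor genes' median. Fold changes near 0 turned sign: with array weights Ptprb was at -0.0022, Itgb3 at -0.040, Angptl7 at -0.0092 and Angptl1 at 0.00074, and with the 5th percentile subtracted Tie1 was at 0.00038 and Angptl1 at 0.76. With single arrays left out the range was -0.065 to 0.11 for Angpt4, -0.11 to 0.054 for Tie1, -0.040 to 0.035 for Ptprb, -0.020 to 0.069 for Angptl4, -0.085 to 0.11 for Agpat5, -0.16 to 0.16 for Itgb3, -0.071 to 0.091 for Angptl7, -0.19 to 0.14 for Angptl1 and -0.051 to 0.19 for Epas1. Among values that kept their sign, the 5th percentile subtracted moved Angpt1 to -0.45, Tek to 0.38, Nos3 to 0.32, Gpihbp1 to 0.72, Ppara to -0.66 and Gata2 to -0.44. The mean of all clusters, which for Angpt1 averages clusters at -0.16 and 0.08, moved Angpt1 to -0.038. The cause of the other shifts was not tested. Only Angpt2 among the 7 members lay above the median level of all genes, so the filter on dim genes gave no value for the other 6.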
